A study of Saccharomyces cerevisiae with 54 samples.

Results

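AQY1 (YPR192W) and AQY2 (YLL052C), the orthodox aquaporin genes of budding yeast, were followed through growth, meiosis and spore formation. They are 2 of the 6679 genes in the deposited tables and were taken by their systematic names, with earlier results of these data known. Aquaporins are membrane channels that let water cross the lipid bilayer along an osmotic gradient. In yeast, AQY1 is known for a role in spore maturation, when the spore loses water, and AQY2 is known as a plasma membrane channel of growing cells that is turned down in hyperosmotic stress. In the laboratory reference strain, S288C, the AQY1 protein carries inactivating changes, and the AQY2 reading frame is broken into YLL052C and the downstream frame YLL053C. Whether the 2 frames are joined in SK1, the strain background measured here, was not analysed.

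The study set ribosome profiling (sequencing of the mRNA fragments that ribosomes protect, called footprints) beside mRNA sequencing, to ask how transcript levels and translation change together in meiosis. All cells were of the SK1 background and were measured in bulk, so fewer cells of a kind and less RNA per cell cannot be told apart. The course has 10 states with 1 footprint, 1 mRNA and 1 total RNA library each, namely exponential growth in rich medium (YEPD), 0, 1.5, 3, 4.5, 6, 8 and 10 h in sporulation medium, spores, and 4.5 h of a strain labelled MATa/a, whose cells lack the alpha mating type and are known not to enter meiosis. A set prepared in parallel adds pairs of footprint libraries at 1.5, 3 and 6 h and single ones from growth and 0 h. Its mRNA side holds pairs at 1.5 and 6 h and 1 library at 3 h. The induction set holds 9 mRNA libraries of the strain brun95, 5 with Ndt80 induced (5.75, 6, 6.5, 7 and 7.75 h) and 4 without induction (4, 5.5, 6 and 7.75 h), with 1 library per hour and group. Ndt80 is the transcription factor that drives exit from meiotic prophase and the middle meiotic genes, and the labels used here name no inducing agent.

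Values are the authors' RPKM, in which reads are divided by gene length and by the library's total, so levels can be compared between genes. The libraries hold 1.03 to 24.72 units of 1000000 reads, as recovered from the steps between low values. NDT80 mRNA was 1430 to 5626 RPKM in the 5 induced libraries, against 45.0 to 79.8 RPKM in the 4 uninduced libraries, and the groups did not overlap. The 0 h course mRNA library is on another scale than the rest, so its changes are given relative to the median gene. The mRNA library labelled MATa/a stood with the mRNA of growing cells (r = 0.97 across genes) and not with the other starved cells (r = 0.51 to 0.61 with 0 to 10 h), and the results that rest on it are given apart.

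AQY1 was low in growing cells and among the most abundant messages and footprints in every meiotic state. Its mRNA level was 20.6 RPKM in growing cells, 2684, 2123 and 2647 in sporulation medium at 0, 1.5 and 3 h, 1552 at 4.5 h, 1201 at 6 h, 2760 at 8 h, then 4320 at 10 h and 6549 in spores. Its footprint level was 17.8 RPKM in growing cells, 2346 at 0 h, 2789 at 1.5 h, 3381 at 3 h, 2746 at 4.5 h, 2207 at 6 h, 4442 at 8 h, 6705 at 10 h and 6128 in spores. Both readouts were thus high from 0 to 3 h, lower at 6 h than at 3 h, and highest at 10 h and in spores. Relative to the median gene, which sets aside the scale of the 0 h mRNA library, AQY1 mRNA was 3.17 at 0 h, 3.56 at 1.5 h, 3.11 at 6 h and 5.11 in spores on the log2 scale. By rank, AQY1 mRNA was 5364th of 6679 genes in growing cells, 498th at 6 h and 83rd in spores, and AQY1 footprints were 4708th in growing cells, 295th at 6 h and 82nd at 10 h.

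**Figure D1:**
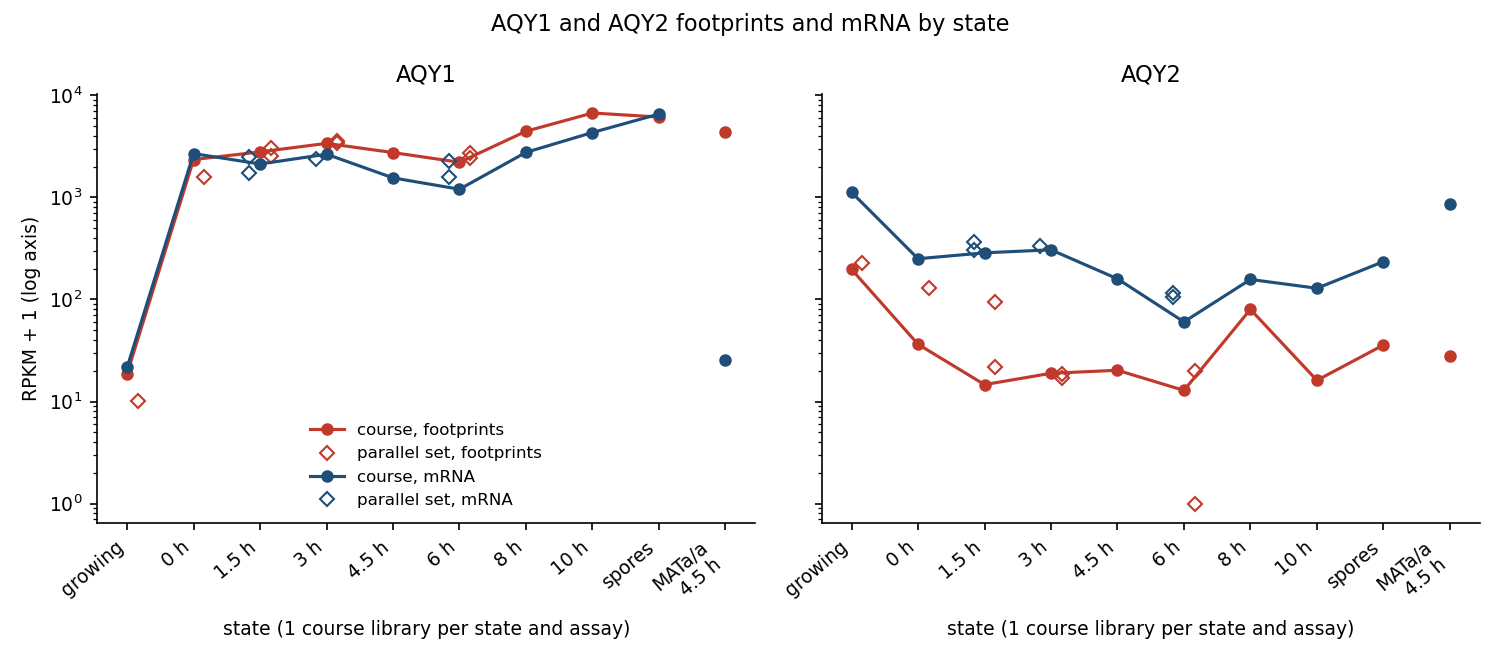
Levels of AQY1 (left) and AQY2 (right) in footprints (red) and mRNA (blue), as RPKM + 1 on a log axis, by state; filled points are the course, 1 library per state and assay, and open diamonds are single libraries of the parallel set. AQY1 lies between 1201 and 6705 RPKM in both course assays from 0 h to spores, against 17.8 and 20.6 RPKM in growing cells, while AQY2 footprints lie under AQY2 mRNA in every course state.

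AQY1 was not confined to spores, although spores held the highest mRNA level of the 10 states. The step with the greatest size came before sporulation: relative to the median gene, AQY1 at 0 h against growing cells was higher by 6.09 in mRNA and by 7.12 in footprints (log2 of RPKM + 1). Of all genes, 29.4% in mRNA and 25.8% in footprints were at least 2-fold higher in that comparison, and AQY1 stood at the 98.2 and 98.8 percentile. The second step, 8 h against 6 h, was 1.33 in mRNA and 1.16 in footprints relative to the median gene. Here 4.74% of genes in mRNA and 6.94% in footprints were at least 2-fold higher, and AQY1 stood at the 98.1 and 95.4 percentile. Spores against 6 h differed by 2.01 in mRNA and 1.61 in footprints, where 17.9% and 25.7% of genes were at least 2-fold higher. With 1 library per state there is no test of these steps.

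The parallel libraries give the spread for the same hours. In footprints, AQY1 was at 9.15 RPKM in growing cells, 1576 at 0 h, 3046 and 2566 at 1.5 h, 3604 and 3412 at 3 h, and 2708 and 2411 at 6 h. In mRNA it was at 2472 and 1751 RPKM at 1.5 h, 2361 at 3 h, and 1600 and 2284 at 6 h. The largest gap between 2 replicates was 0.25 in footprints and 0.51 in mRNA on the log2 scale. Measured against those gaps, the course order of AQY1 footprints sets 10 h and spores (apart by 0.13) above 8 h and the MATa/a cells (apart by 0.02), then 3 h, then 1.5, 4.5, 0 and 6 h, whose neighbours differ by less than the gap, and growing cells far below. In mRNA, spores stood above 10 h by 0.60 and 10 h above 8 h by 0.65, both past the gap, whereas the neighbours among 8, 0, 3, 1.5, 4.5 and 6 h did not differ beyond it. These orders use the authors' scale and depend on it. Relative to the median gene, AQY1 mRNA in spores against 10 h and at 10 h against 8 h differed by 0.39 and 0.29, both under the gap, while 8 h stood at 4.44 and 3 h at 3.67. In footprints on that scale, 1.5 h against 0 h differed by -0.50, past the gap.

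In the tests over the parallel libraries (limma with Benjamini-Hochberg adjustment over 5967 genes), AQY1 did not pass in any of 6 contrasts. AQY1 footprints at 6 h against 3 h differed by -0.46 (SE 0.226, 95% interval -0.97 to 0.06, adjusted p = 0.115), in a comparison where 56.2% of genes passed and the median gene changed by -0.45. AQY1 mRNA at 6 h against 3 h differed by -0.30 (SE 0.277, 95% interval -0.93 to 0.32, adjusted p = 0.358), where 58.6% of genes passed and the median gene changed by -0.81, and the difference became 0.30 when each library was centred on its median. At 3 h against 1.5 h, AQY1 differed by 0.33 in footprints (SE 0.226, 95% interval -0.19 to 0.84, adjusted p = 0.386, 7.81% of genes passed) and by 0.18 in mRNA (SE 0.277, 95% interval -0.44 to 0.81, adjusted p = 0.778, 3.84% passed). Nothing in the labels ties replicates to cultures of their own, so p-values here measure only the spread between libraries, which may be technical.

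Footprints relative to mRNA (translation efficiency, the log2 footprint to mRNA ratio less its median over 5621 genes) were above the median gene for AQY1 in every course state. The value was 1.86 at 0 h, 0.89 at 1.5 h, 1.09 at 3 h, 1.37 at 4.5 h, 1.27 at 6 h, 1.05 at 8 h, 1.28 at 10 h and 0.78 in spores, with a median of 1.18, and 0.75 in growing cells. The spore value depended on the RNA it was set against, and was 1.64 with total RNA in place of mRNA. In the parallel libraries the change in translation efficiency of AQY1 was 0.14 at 3 h against 1.5 h (SE 0.358, adjusted p = 0.929) and -0.15 at 6 h against 3 h (SE 0.358, 95% interval -0.96 to 0.66, adjusted p = 0.857). Of all genes, 0% passed by limma in the first of these, where 523 had an unadjusted p under 0.05, and 1.32% passed in the second.

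In total RNA libraries, put on one scale per length and library total, AQY1 was at 1.76 in growing cells, 223 at 0 h, 688 at 1.5 h, 571 at 3 h, 516 at 4.5 h, 529 at 6 h, 1074 at 8 h, 903 at 10 h and 1336 in spores. It was highest in spores and lowest in growing cells, as in mRNA. In total RNA, unlike mRNA, 0 h was the lowest of the states in sporulation medium, 6 h was not below 4.5 h, and 8 h lay above 10 h.

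AQY1 was high in states in which genes of the spore wall and spore maturation were low. A list of 23 such genes, among them DIT1 and DIT2 (dityrosine synthesis), CDA1 and CDA2 (chitin deacetylases), SMK1 (a sporulation kinase) and GAS2 and GAS4 (glucan-modifying enzymes), was chosen for role. The median mRNA level of the list was 30.4 RPKM at 0 h, 18.5 at 1.5 h, 74.3 at 3 h, 2583 at 4.5 h, 2756 at 6 h, 2584 at 8 h, 1712 at 10 h and 109 in spores. All 23 genes were below AQY1 mRNA at 1.5 h, at 3 h and in spores, but 9 of 23 were below it at 6 h. Of all genes, 97.0%, 97.3%, 98.8% and 92.5% were below AQY1 mRNA in these states. In footprints, 23 of 23 were below AQY1 at 0, 1.5 and 3 h, 9 at 6 h and 22 in spores. Of all genes, 96.8%, 97.1%, 97.6%, 95.6% and 98.5% were below AQY1 footprints in these states. Except at 6 h, the list counts were thus near the share of all genes.

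**Figure D2:**
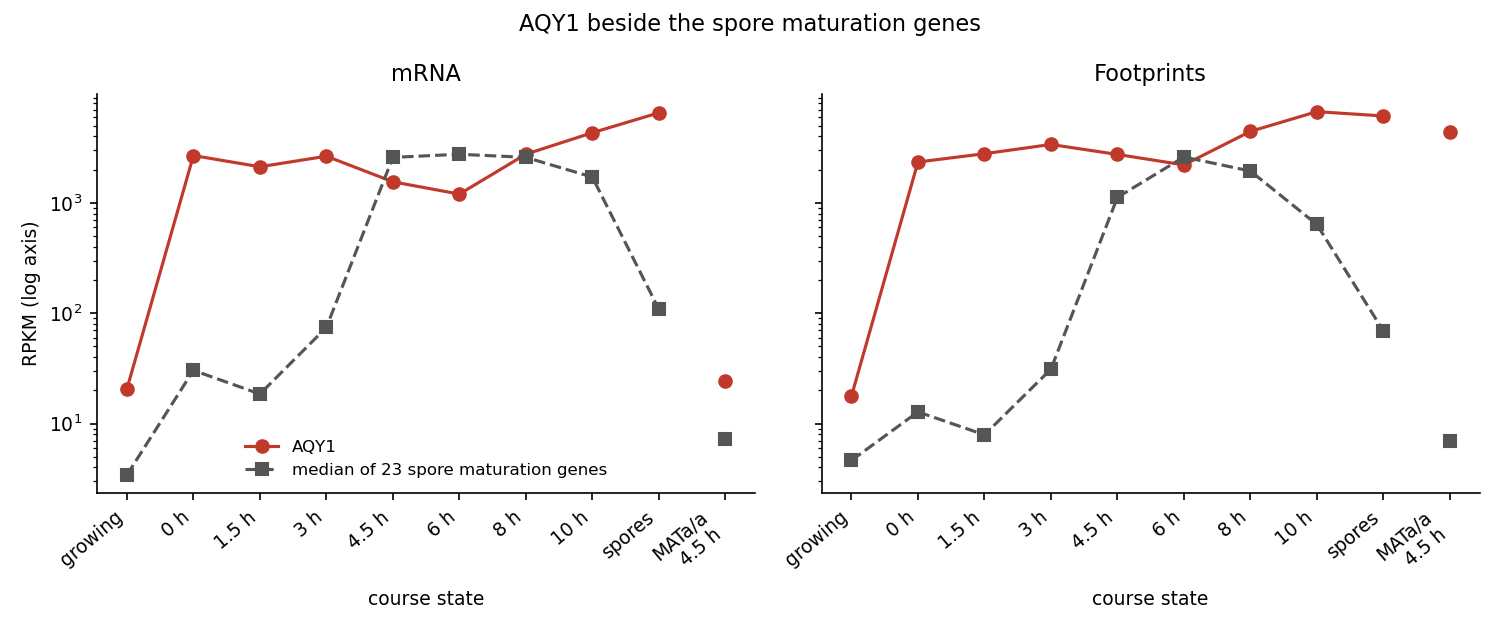
AQY1 (red) and the median of 23 spore maturation genes (grey, dashed) in mRNA (left) and footprints (right), as RPKM on a log axis, by course state. The list median lies at 18.5 to 74.3 RPKM in mRNA from 0 to 3 h while AQY1 lies at 2123 to 2684 RPKM, and in spores the list median is 109 RPKM while AQY1 is at 6549 RPKM.

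In the parallel libraries, 21 of the 23 spore genes rose at 6 h against 3 h in mRNA and 21 in footprints, against 9.47% and 15.6% of all genes. The medians of the list were 5.27 and 6.26 on the log2 scale, beside -0.81 and -0.45 for all genes. SMA2, needed for prospore membrane growth, rose by 7.45 in mRNA (SE 0.45, adjusted p = 5.1e-06), and SSP2, a partner of the kinase SMK1, rose by 7.14 (SE 0.228, adjusted p = 2.21e-07). SPS2 and OSW1, also spore wall genes, rose by 7.03 and 6.51. AQY1, at -0.30 in mRNA and -0.46 in footprints, did not pass in the same comparisons. SPS100, a late spore wall gene whose annotation overlaps the noncoding gene SUT169, was the 1 gene of the list that fell in mRNA, by 1.38 (SE 0.399, limma adjusted p = 0.016), and it no longer passed after centring (adjusted p = 0.196).

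AQY2 was highest in growing cells, where AQY1 was lowest. Its mRNA level was 1120 RPKM in growing cells, 250 at 0 h, 285 at 1.5 h, 305 at 3 h, 158 at 4.5 h, 59.3 at 6 h, 156 at 8 h, 128 at 10 h and 234 in spores. Its footprint level was 196 RPKM in growing cells, 35.4 at 0 h, 13.6 at 1.5 h, 17.9 at 3 h, 19.2 at 4.5 h, 11.8 at 6 h, 78.9 at 8 h, 15.1 at 10 h and 34.7 in spores. Growing cells held the most AQY2 in both assays, and 6 h had the lowest value. In footprints that minimum was not resolved. At 6 h the Poisson interval was 6.12 to 20.7 RPKM, which overlaps that of 1.5 h (8.21 to 21.3). From 0 h to spores AQY1 also had its lowest value at 6 h in both assays. It was within the replicate gap of 0 h in footprints (0.09) and of 4.5 h in mRNA (0.37). Both genes were higher at 8 h than at 6 h. In total RNA neither gene was lowest at 6 h. There AQY2 was at 25.3 at 0 h, 31.5 at 6 h and 26.1 at 10 h, and AQY1 at 223 at 0 h and 529 at 6 h. At 0 h against growing cells AQY2 differed by -3.03 in mRNA and -2.28 in footprints relative to the median gene, where 32.4% and 35.5% of genes were at least 2-fold lower. The footprint fall was smaller in the parallel set, with 1.31 in growing cells and 0.71 at 0 h relative to the median gene. The 0 h footprint libraries hold 11 reads on AQY2 in the course and 18 in the parallel set.

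Few reads stand behind the AQY2 footprints. The course libraries hold 267 reads on AQY2 in growing cells, 124 at 8 h and 11 to 40 in the other states, and intervals from reads cover counting error only. At 8 h the footprint level was 78.9 RPKM (95% Poisson interval 65.6 to 94.1), an interval that overlaps neither that of 6 h (11.8 RPKM, 6.12 to 20.7) nor that of 10 h (15.1 RPKM, 8.96 to 23.9). Relative to the median gene, 8 h against 6 h was 2.78 in footprints and 1.51 in mRNA, at the 99.7 and 98.8 percentile of genes. The 8 h footprint level was thus a single high point between 2 low ones, in 1 library, and no parallel library of 8 h was analysed here.

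In the parallel set AQY2 footprints were at 225 RPKM in growing cells, 128 at 0 h, 94.1 and 20.8 at 1.5 h, 17.8 and 15.9 at 3 h, and 19.0 and 0 at 6 h. The reads behind them were 286, 18, 56 and 24, 7 and 8, and 12 and 0, and a count of 0 allows up to 16.0 RPKM in the second 6 h library. AQY2 mRNA was at 365 and 302 RPKM at 1.5 h, 329 at 3 h, and 113 and 104 at 6 h. The mRNA replicates were apart by at most 0.27 on the log2 scale, and the footprint replicates by 2.13 at 1.5 h and 0.15 at 3 h. At 6 h the gap depends on the pseudocount, since 1 library holds 0 reads. The widest step between neighbours in the order of AQY2 footprints over the course, growing cells over 8 h by 1.30, was under the gap of 2.13.

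In the mRNA order on the authors' scale, growing cells stood above the library labelled MATa/a by 0.37 and that library above 3 h by 1.50. Relative to the median gene, growing cells stood at 2.78 and the library labelled MATa/a at 2.70, which is within the gap. The levels at 3 and 1.5 h did not differ beyond the gap, and 1.5 h stood above 0 h by 0.92 relative to the median gene. On the authors' scale, spores stood 0.56 above 4.5 h, and 10 h stood 1.09 above 6 h.

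AQY2 passed in none of the 6 parallel contrasts. In mRNA, 6 h against 3 h differed by -1.59 (SE 1.41, 95% interval -4.79 to 1.61, limma adjusted p = 0.347), although both 6 h libraries lay under the 3 h library. One spread was estimated for both assays, so the wide AQY2 footprint values enter this SE. In footprints, 6 h against 3 h differed by -1.99 (SE 1.15, adjusted p = 0.170). That value rests on the library with 0 reads: it was -3.61 (adjusted p = 0.1497) with a pseudocount of 0.1 RPKM in place of 1, -4.16 (adjusted p = 0.00233) without the other 6 h library and 0.17 without the one at 0. At 3 h against 1.5 h the differences were -0.01 in mRNA (SE 1.41) and -1.35 in footprints (SE 1.15), with adjusted p of 0.998 and 0.483 from limma. The translation efficiency of AQY2 changed by -1.34 at 3 h against 1.5 h (SE 1.82) and by -0.40 at 6 h against 3 h (SE 1.82, 95% interval -4.53 to 3.72), with limma adjusted p of 0.847 and 0.932. The second was -2.01 with the pseudocount of 0.1 RPKM.

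**Figure D3:**
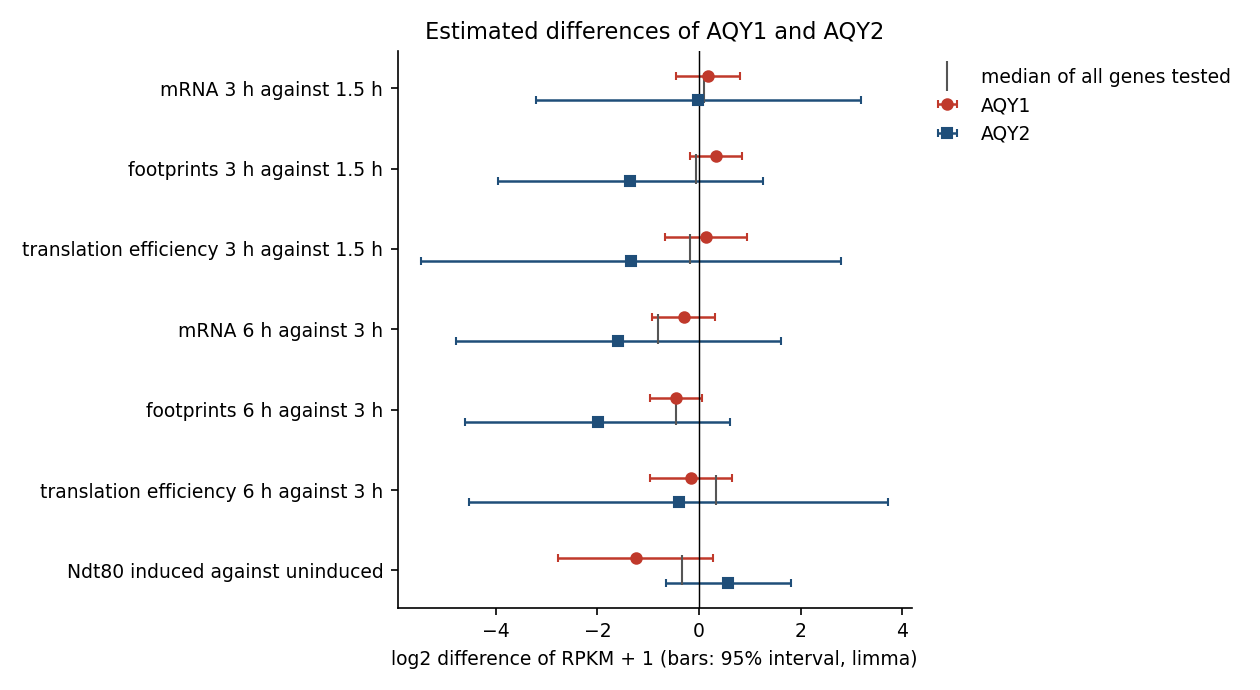
Estimated log2 differences of AQY1 (red circles) and AQY2 (blue squares) with 95% intervals from limma, and the median of all genes tested (grey ticks), for the 6 parallel contrasts and for Ndt80 induction. Every interval of both genes holds 0, and the AQY2 intervals of the parallel contrasts are wider than those of AQY1.

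In footprints relative to mRNA, AQY2 stood below the median gene in all 10 course states. The value was -1.55 in growing cells, -0.73 at 0 h, -3.80 at 1.5 h, -3.28 at 3 h, -2.44 at 4.5 h, -1.84 at 6 h, -0.61 at 8 h, -2.35 at 10 h and -1.84 in spores. AQY1 was above the median gene in the same libraries. The AQY2 value at 0 h rests on 11 footprint reads. Relative to the median gene, AQY2 footprints at 0 h stood at -1.05 in the course but at 0.71 in the parallel set. The side of the median gene on which AQY2 lies at 0 h is thus not settled. From 0 h to spores the AQY1 to AQY2 ratio of levels was 56.3 to 444 in footprints and 7.44 to 33.8 in mRNA, and in growing cells it was 0.0906 in footprints and 0.0184 in mRNA. The paralogs may share reads where their sequences are alike, and the sources used here do not say how such reads were assigned.

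YLL053C, the frame that overlaps YLL052C in the R64 annotation of the reference strain, separated from AQY2 in footprints but not in mRNA. The YLL053C to AQY2 ratio was 1.02 to 1.61 in course mRNA from 0 h to spores, and 1.18 to 1.69 in parallel mRNA. In footprints it was 0.0833 to 0.211 at 0 to 3 h and from 8 h to spores, 0.758 at 4.5 h and 4.75 at 6 h. YLL053C held 57 footprint reads at 6 h, against 12 on AQY2, while at 3 h it held 6 reads, against 40 on AQY2. In the parallel set YLL053C held 23 and 4 footprint reads at 6 h, against 12 and 0 on AQY2, and 0 and 2 at 3 h, against 7 and 8 on AQY2. So the YLL053C frame led at 6 h in 3 of 3 libraries, and AQY2 led at 3 h in 3 of 3.

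**Figure D4:**
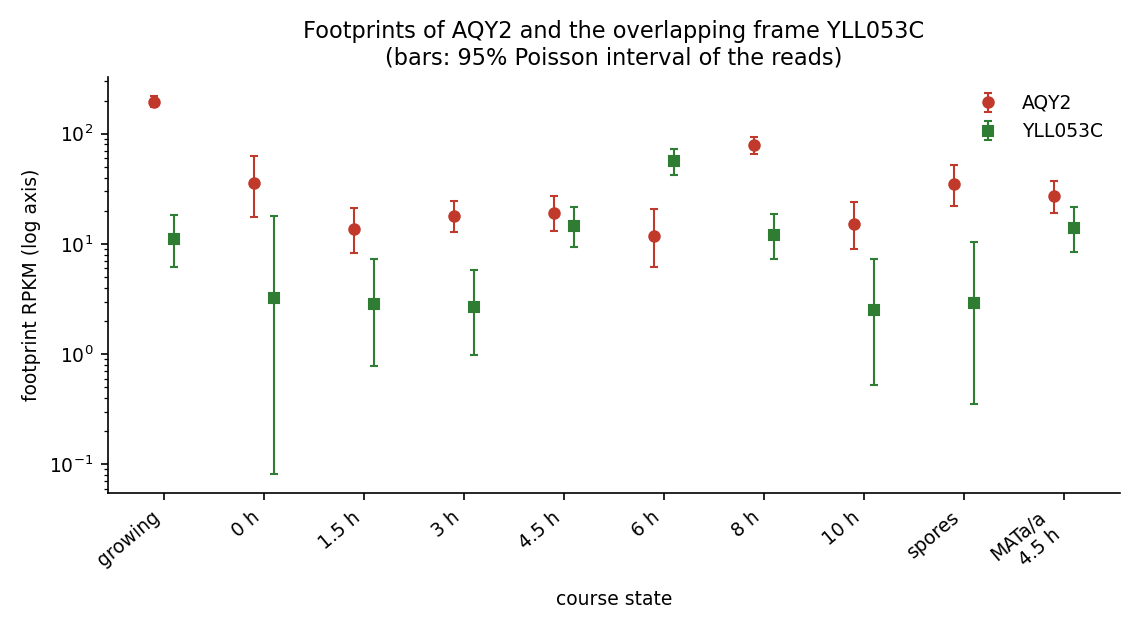
Footprint RPKM of AQY2 (red circles) and YLL053C (green squares) by course state on a log axis, with 95% Poisson intervals of the reads, which cover counting error only. AQY2 lies above YLL053C in 9 of the 10 states, and at 6 h YLL053C is at 56.3 RPKM and AQY2 at 11.8 RPKM.

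YLL053C footprints rose at 6 h against 3 h by 3.70 (SE 0.673, limma adjusted p = 0.00171), where 15.6% of genes rose, and by 3.94 after centring. YLL053C mRNA in the same comparison differed by -1.69 (SE 0.825, adjusted p = 0.105). The change in YLL053C translation efficiency was 5.39 (SE 1.06, 95% interval 2.98 to 7.80) and missed the threshold (limma adjusted p = 0.0514). The sources used here do not name the strand counted, and reads in the shared bases cannot be assigned to 1 frame.

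The MATa/a footprint and mRNA libraries stood on opposite sides of meiotic cells for AQY1 but not for AQY2. AQY1 footprints were at 4384 RPKM in MATa/a cells at 4.5 h, against 2746 RPKM in meiotic cells at 4.5 h. AQY1 mRNA was at 24.4 RPKM in the library labelled MATa/a, against 1552 RPKM in meiotic cells at 4.5 h, and total RNA was at 3.50 against 516. AQY2 mRNA was at 868 RPKM in the library labelled MATa/a, against 158 in meiotic cells, and AQY2 footprints were at 27.1 RPKM in MATa/a cells, against 19.2 in meiotic cells. The MATa/a footprint library correlated at 0.90 with spores and at 0.64 with growing cells across genes, and the MATa/a mRNA and total RNA libraries correlated at 0.97 and 0.95 with growing cells. The AQY1 translation efficiency of 8.18 and the AQY2 value of -4.20 in MATa/a cells set these unlike libraries against each other. By footprints alone, AQY1 in the MATa/a cells was 0.02 from its 8 h level on the log2 scale, within the replicate gap.

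After Ndt80 induction AQY1 mRNA was at 1329, 1527, 1971, 1003 and 118 RPKM in the induced libraries of 5.75, 6, 6.5, 7 and 7.75 h, against 3039, 3284, 3297 and 1890 RPKM in the uninduced libraries of 4, 5.5, 6 and 7.75 h. The means were 1189 ± 694 RPKM in induced cells (SD, n = 5) and 2877 ± 669 RPKM in uninduced cells (SD, n = 4). Within a group each library is another hour, so these SDs hold change with hour as well as spread between libraries. Of the induced libraries, 4 lay under every uninduced one, and the fifth, at 6.5 h, overlapped the uninduced library of 7.75 h. The fit over all genes with hour as a term gave -1.24 (SE 0.689, 95% interval -2.77 to 0.28, limma adjusted p = 0.521), in a comparison where 0.067% of 5974 genes passed, 4 higher and 0 lower by limma, and 613 had an unadjusted p under 0.05. In a two-sided exact permutation test of the mean log2 level, without hour and unadjusted, the difference was -1.70 (p = 0.0317, where 0.0159 is the smallest p that 5 against 4 libraries allow). That test treats the hours as interchangeable, although the groups hold different hours.

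**Figure D5:**
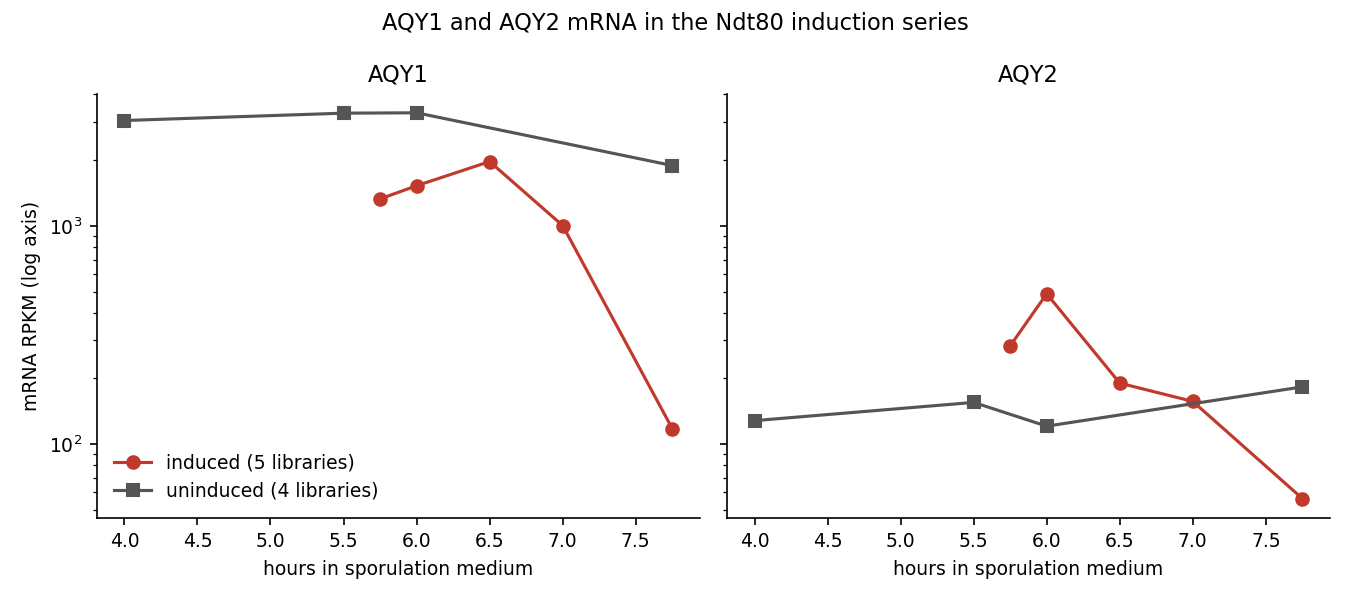
AQY1 (left) and AQY2 (right) mRNA in RPKM on a log axis against hours in sporulation medium, in 5 libraries with Ndt80 induced (red circles) and 4 uninduced libraries (grey squares), 1 library per point. AQY1 is lower in the induced library at both shared hours, and AQY2 is higher at 6 h and lower at 7.75 h.

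At the shared hours, AQY1 in the induced library against the uninduced one differed by -1.11 at 6 h and -3.99 at 7.75 h, or by -1.06 and -2.49 relative to the median gene. The median gene itself differed by -0.05 at 6 h and -1.50 at 7.75 h. The induced 7.75 h library holds 90 reads on AQY1 and has 2.62 units of 1000000 reads in all, the least of the 9. The part of depth and of the shift of the median gene in the result was not tested. Without it the fitted difference of AQY1 was -0.89 (adjusted p = 0.297). The last induced library had 118 RPKM of AQY1 mRNA where the course had 2760 RPKM at 8 h, but the sets differ in strain and were not tested against each other.

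AQY2 mRNA after induction was at 282, 488, 190, 157 and 56.3 RPKM in the same 5 induced libraries, against 128, 155, 121 and 183 RPKM in the 4 uninduced ones. On the authors' scale, the first 3 induced libraries lay above all uninduced ones. The last, with 20 reads on AQY2, lay below them. Relative to the median gene, that last library stood at -0.42, above the uninduced libraries of 4 h (-0.48) and 6 h (-0.69). The induced 7 h library, at 0.26, also lay above all uninduced ones on that scale. The fitted difference was 0.58 (SE 0.555, 95% interval -0.66 to 1.81, limma adjusted p = 0.622), and the exact two-sided permutation p was 0.524. At the shared hours AQY2 differed by 2.06 at 6 h and -0.18 at 7.75 h relative to the median gene. YLL053C differed by 1.87 at 6 h and 0.75 at 7.75 h on that scale.

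A slope of hour for each group, added after the values had been seen, described that pattern. The log2 slope of AQY2, induced minus uninduced, was -1.45 per hour (SE 0.271, limma adjusted p = 0.00157), and that of AQY1 was -1.50 (SE 0.477, adjusted p = 0.0194). In this comparison 57.3% of genes had a lower slope and the median gene was at -0.82. After centring, the difference was -0.73 for AQY2 (adjusted p = 0.0497) and -0.79 for AQY1 (adjusted p = 0.190). The AQY1 value came from 1 library: without the induced 7.75 h library it was -0.07 (adjusted p = 0.896), while AQY2 was at -1.13 (adjusted p = 0.0378).

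The other channels of the family are FPS1, the glycerol export channel of the plasma membrane, and AQY3, a channel of the aquaglyceroporin kind. For both, every induced library lay below every uninduced one on the authors' scale. FPS1 mRNA was 129 to 294 RPKM in induced cells, against 340 to 355 in uninduced cells, and AQY3 was 16.1 to 46.0 RPKM, against 72.4 to 88.0. Each had the smallest possible exact permutation p, 0.0159, and of all genes 7.62% had every induced library below every uninduced one. Relative to the median gene the FPS1 groups overlapped, at 0.40 to 1.04 in induced and 0.80 to 0.99 in uninduced libraries. AQY3 stayed apart on that scale, at -2.23 to -1.83 against -1.42 to -0.96. Neither passed in the fit with hour (limma adjusted p = 0.535 for FPS1 and 0.400 for AQY3).

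In the parallel libraries FPS1 mRNA fell by 1.12 at 6 h against 3 h (SE 0.284, limma adjusted p = 0.00889) while FPS1 footprints rose by 0.90 (SE 0.232, adjusted p = 0.00945). FPS1 footprints were at 128 and 135 RPKM at 6 h, against 80.8 and 60.8 at 3 h, and FPS1 mRNA was at 223 and 160 RPKM at 6 h, against 412 at 3 h. The FPS1 translation efficiency was higher at 6 h by 2.01 (SE 0.366, adjusted p = 0.0387). After centring, the rise in footprints passed (1.14, adjusted p = 0.00373), but the mRNA fall (-0.51, adjusted p = 0.197) and the change in translation efficiency (1.66, adjusted p = 0.0997) did not. AQY3 mRNA fell by 1.71 (SE 0.40, adjusted p = 0.00619), with -1.10 and adjusted p = 0.0786 after centring. Thus AQY1 and AQY2 did not pass where FPS1 did, and the difference between these genes was not tested.

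Of 23 genes of glycerol metabolism and the osmotic stress pathway, 16 fell and 0 rose in mRNA at 6 h against 3 h, beside 49.1% of all genes that fell, and 1 fell and 2 rose after centring. The list median was -0.86, beside -0.81 for all genes. STL1, a glycerol uptake transporter, fell by 1.60 (SE 0.50, limma adjusted p = 0.0224), and SKO1, a transcription factor downstream of Hog1, fell by 1.56 (SE 0.282, adjusted p = 0.00201). In footprints 10 fell and 3 rose, beside 40.6% and 15.6% of all genes. YPD1, the phosphorelay protein upstream of the Hog1 kinase, rose by 1.29 (SE 0.171, adjusted p = 0.000356), and HKR1, an osmosensor mucin, fell by 1.28 (SE 0.266, adjusted p = 0.0032). The list's median mRNA change was near that of all genes, although a larger share of the list fell on the authors' scale. In the induction fit by limma 0 of the 23 passed, where 4 of all genes did.

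Over the 9 course states other than MATa/a, the genes with mRNA most like AQY1 by Pearson r of log2 levels were YBR116C (0.993), TKL2, a transketolase (0.974), YNL043C (0.967), GND2, a 6-phosphogluconate dehydrogenase (0.963), and FMP16 (0.960). YBR116C and YNL043C have no entry in the reference used for names, so whether they overlap other genes was not checked. In footprints the most alike were ATG34, a receptor of selective autophagy (0.994), ECI1 and POT1, enzymes of fatty acid beta-oxidation (0.994 and 0.992), YER079W (0.992) and GPG1 (0.988). All genes share the 9 libraries of an assay, and the growing state lies far from the others for AQY1, so these values are a description.

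For AQY2 the mRNA most alike was YLL053C (0.980), then ENV9 (0.972), SUV3, a mitochondrial RNA helicase (0.959), ORT1, a mitochondrial ornithine carrier (0.953), and TRP3, an enzyme of tryptophan synthesis (0.950). In footprints it was ENP1, a ribosome biogenesis factor (0.903), MRPL33 and MRPS8, mitochondrial ribosomal proteins (0.900 and 0.898), JIP5 (0.892) and GPX2 (0.889). AQY1 and AQY2 themselves had r = -0.65 in mRNA and -0.71 in footprints. The 23 spore maturation genes had a median r of 0.49 with AQY1 and -0.84 with AQY2 in mRNA, and of 0.47 and -0.32 in footprints.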

How the data were processed

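Demultiplexing used CASAVA and bcl2fastq 2.17 and alignment used Bowtie2, per the submitters' processing notes. Counting tool, genome build, annotation and strand are not stated there or in the labels, so coordinates are left out, and R64 served for names and overlaps only. Per the file headers the values are RPKM computed by the authors. The other unit is a score: 9 deposited total RNA columns behave as reads multiplied by length and were rescaled, and 1 deposited induction column holds an hour in the line under its header, which was not read as a gene. The per-sample columns left aside number 6, and 1 sample, 0 h mRNA prepared in parallel, was not analysed here because no column could be assigned to it. Another 5 lines name no gene and were dropped. Both 3 h mRNA columns were identical in all 6679 genes and counted as 1 library; 52 libraries of 54 samples were used. In 11 parallel libraries, 443 genes are out of step with the names column and were assigned by position; neither AQY1 nor AQY2 is among them.

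Reads were recovered from RPKM, gene length (minus 60 bases) and the worth of a single read, and 73.1 to 91.0% of values up to 100 reads came out whole within 0.02. AQY2 reads were whole with the length used for YLL053C. Tests used log2(RPKM + 1) of genes averaging 5 RPKM or more, and limma 3.58.1 (R 4.3.3) with a trended prior and Benjamini-Hochberg adjustment, at 0.05; fold changes of low genes are understated on this scale. The parallel fit held 11 libraries (5 residual degrees of freedom), with the lone 3 h mRNA library assumed to vary like the others, where 12 had been planned; the induction fit held 9 with hour as a linear term (6). The induction fit and the 6 h against 3 h contrasts were tested on simulated data. Alternatives were another pseudocount (0.1), no filter, centring each library, a replicate block, other treatments of hour, total RNA in place of mRNA, and leaving out each library. Python 3.11.15 with pandas 2.3.3, numpy 2.4.6, matplotlib 3.10.9 and scipy 1.17.1 served for the rest.

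AQY1 and AQY2, the lists and the tests were chosen with earlier results of these data known. Named genes were AQY1 and AQY2, YLL053C, FPS1 and AQY3, NDT80 and IME1 as checks, at most 4 called genes per list and contrast by size, SPS100 besides, named after its value was seen, and the 5 genes most like each aquaporin gene. IME1 mRNA, the inducer of meiosis, was 56.6 RPKM in growing cells, 15702 at 0 h and 3831 at 1.5 h. Relative to the median gene, which sets aside the scale of the 0 h library, these were -1.50, 5.72 and 4.41 on the log2 scale.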

Additional observations from a re-analysis of the deposited data

Results flagged for a closer look

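In the induction series, 10 groups of libraries were checked for a library far from the others, and 3 had one. Chance gives about 1 in 20 for independent groups of like libraries. The genes checked share the same libraries, each of another hour, so the count cannot be set against that rate. AQY1 in the induced libraries had its lowest library, 118 RPKM at 7.75 h, at 0.760 of the range from its nearest neighbour. AQY1 in the uninduced libraries also had its lowest library at 7.75 h, with 1890 RPKM and a gap of 0.853 of the range. AQY3 in the induced libraries had 16.1 RPKM at 7.75 h, with a gap of 0.749 of the range. Relative to the median gene, AQY3 in that library stood at -2.17, inside the range of the induced libraries (-2.23 to -1.83) and not the lowest. Each group holds 1 library per hour, so hour and library cannot be told apart.

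The slopes of hour differed between induced and uninduced cells in 4 of these genes by an interaction term in limma, adjusted over all genes. The difference of slopes was -1.50 per hour for AQY1, -1.45 for AQY2, -1.23 for YLL053C and -0.612 for AQY3 (adjusted p = 0.0194, 0.00157, 0.00207 and 0.030), beside -0.82 for the median gene and 57.3% of all genes with a lower slope. With each library centred on its median, only AQY2 of the 4 passed: it was at -0.73 (limma adjusted p = 0.0497), AQY1 at -0.79 (0.190), YLL053C at -0.51 (0.122), and AQY3 turned to 0.10 (0.696).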

How the results depend on the processing

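With each library centred on its median, genes called numbered 149 in mRNA at 3 h against 1.5 h (229 as scaled by the authors), 1703 in mRNA at 6 h against 3 h (3494), 32 in translation efficiency at 6 h against 3 h (79) and 2164 in slopes (3856); the AQY1 difference in mRNA at 6 h against 3 h turned to 0.30 and its slope difference to -0.79 (adjusted p = 0.190). With no filter, translation efficiency gave 11 genes at 3 h against 1.5 h and 155 at 6 h against 3 h, and with the pseudocount of 0.1 RPKM 1 passed in the first (0 as scaled), while AQY2 at 6 h against 3 h moved to -3.61 in footprints and -2.01 in translation efficiency. With induced libraries of 6.5 h and later only and no hour term, 3292 genes passed (637 higher, 2655 lower; 4 with all libraries), AQY1 was at -2.19 (adjusted p = 0.0383) and AQY2 turned to -0.28. With total RNA in place of mRNA, AQY1 translation efficiency in spores was 1.64. The cause of these shifts was not tested.

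Replicate numbers did not pair the libraries: of 10 pairs of groups, 1 had a correlation of deviations over 0.1 (range -0.113 to 0.236). With the replicate block, 76 genes passed in mRNA at 3 h against 1.5 h and 44 in translation efficiency at 6 h against 3 h, and AQY2 turned to 0.69 in the first and 0.30 in the second.

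Leaving out 1 library at a time, genes called ranged from 3 to 106 in the induction fit (106 without the induced 5.75 h library), 61 to 309 in mRNA and 52 to 798 in footprints at 3 h against 1.5 h, and in translation efficiency 0 to 8 at 3 h against 1.5 h and 7 to 160 at 6 h against 3 h. In the induction fit AQY1 ranged from -1.54 to -0.62 (without uninduced 7.75 h) and AQY2 from 0.18 (without induced 6 h) to 1.51 (without uninduced 7.75 h). AQY1 ranged from -0.066 to 0.43 in mRNA at 3 h against 1.5 h, from -0.56 to -0.048 in mRNA at 6 h against 3 h, from -0.10 to 0.39 and -0.41 to 0.10 in translation efficiency at 3 h and 6 h, and from -2.02 to -0.068 in the slope difference, which missed the threshold without uninduced 4 h (-1.31), uninduced 7.75 h (-1.75) or induced 7.75 h (-0.068). AQY2 ranged from -0.15 to 0.12 in mRNA and -2.42 to -0.29 in footprints at 3 h against 1.5 h, from -2.40 to -0.28 in translation efficiency there, from -4.16 to 0.17 in footprints at 6 h against 3 h and from -2.56 to 1.76 in translation efficiency at 6 h against 3 h. AQY2 had 0 to 56 footprint reads per parallel library of sporulating cells.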
